A study of Mus musculus with 6 samples.

Results

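Genes of the Notch pathway were followed across 6 arrays of mouse embryonic stem cells. They were every feature annotated with exactly 1 of the symbols Rbpj, Notch1, Notch2, Notch3, Dll1, Jag1, Hes1, Hey1 and Maml1, which gave 10 features of 9 genes out of 34760 features on the array. Rbpj has 2 features and each other gene has 1. The list was chosen on earlier results of these arrays, in which 1 Rbpj feature was lower in the arrays labelled GCSF than in control. For Rbpj the differences that involve the GCSF arrays are therefore given as a description with no test, and the other 8 genes were added for their place in the pathway.

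All cells were embryonic stem cells of strain C57Bl/6 that stably carried GRgp-Y118F, a chimeric receptor. Receptors of this design carry the outer part of the receptor for GCSF (granulocyte colony-stimulating factor) and the inner part of gp130, the chain by which LIF (leukaemia inhibitory factor) signals to STAT3. The groups were 2 arrays labelled GCSF, 2 arrays labelled LIF/PD (LIF with 1 uM PD0325901, an inhibitor of the kinase MEK upstream of ERK) and 2 untreated control arrays. Treated cells were held without serum for 6 h and then exposed to the agents for 1 h, and no label says whether the controls were also held without serum. The promoter that drives the receptor, and whether the line is a single clone, are not stated. No label tells whether the replicate arrays were separate cultures, so the spread between these arrays may be technical. Each standard error and p-value below rests on a spread pooled over all groups and drawn towards that of features of like intensity. A standard error is therefore not the spread of the 2 arrays of a group.

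In Notch signalling, a ligand of the Delta or Jagged family on 1 cell binds a Notch receptor on its neighbour, and the receptor is then cut within the membrane. Its freed intracellular part enters the nucleus and binds the DNA-binding protein RBPJ together with a Mastermind coactivator, and this complex turns on repressor genes of the Hes and Hey families. Without the Notch fragment, RBPJ sits on DNA with corepressors. In mouse embryonic stem cells Notch signalling is known for promoting neural commitment rather than for self-renewal, and Hes1 levels are known to oscillate.

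The labels were first checked against known responses. Dusp6, an ERK phosphatase gene that responds to ERK activity, had log2 intensities of 8.93 and 8.94 in the GCSF arrays, 10.51 and 10.54 in the LIF/PD arrays and 10.47 and 10.52 in control. Spry4, a feedback inhibitor of the same pathway, differed from control by -1.83 ± 0.06 log2 (SE, n = 2 each) in the GCSF arrays and by 0.05 ± 0.06 in the LIF/PD arrays. Low ERK feedback transcripts thus lay in the arrays labelled GCSF and not in those labelled as holding the MEK inhibitor. This order of the 2 groups goes against their labels, chiefly through the Dusp6 and Spry4 values near control in LIF/PD. Whether GRgp-Y118F signals to ERK was not tested. Groups are kept as labelled, and each direction below is that of the arrays so labelled. Socs3, a STAT3 feedback gene, was 3.13 ± 0.07 log2 above control in the GCSF arrays and 2.62 ± 0.07 above it in the LIF/PD arrays on its feature of the larger difference. All 8 embryonic stem cell markers lay above the intensity filter, at 9.12 to 13.75, and so did all 6 fibroblast markers, at 8.92 to 10.84. The log2 of the summed stem cell markers was 15.43 to 15.44 in GCSF, 15.43 to 15.46 in LIF/PD and 15.39 to 15.42 in control. In GCSF against control Tdgf1 differed by 0.30 ± 0.03 and Utf1 by -0.16 ± 0.03. The other stem cell markers lay between -0.06 and 0.10 in that contrast. The log2 of the summed fibroblast markers was 12.69 in both GCSF arrays, 12.65 to 12.66 in LIF/PD and 12.66 to 12.68 in control. Among the fibroblast markers, Col3a1 differed from control by 0.29 ± 0.05 in GCSF, and Thy1 and S100a4 by -0.10 and -0.13. For 3 neuroectoderm markers the summed level was 9.71 to 9.74 in GCSF, 9.70 in LIF/PD and 9.55 to 9.60 in control. This difference lay in Pax6 (0.54 ± 0.07 in GCSF and 0.40 ± 0.07 in LIF/PD against control), while Sox1 and Nes lay between -0.06 and 0.02. The summed level was lower in both GCSF arrays for trophoblast markers (11.86 to 11.92, against 11.98 to 12.03 in LIF/PD and 12.00 to 12.01 in control) and for mesoderm markers (8.85 to 8.88, against 8.98 to 9.01 in LIF/PD and 8.95 to 9.05 in control). Eomes, at -0.18 ± 0.06 in GCSF against control, is in both of these lists, so their falls are not separate. In the same contrast Krt8, the brightest trophoblast marker, differed by -0.12 ± 0.04 and Cdx2 by 0.03 ± 0.08. Of the mesoderm markers, Mixl1 differed by 0.01 ± 0.09, and Kdr, below the intensity filter, by -0.19 ± 0.11. For primitive endoderm the summed level lay between 9.95 and 10.00 and for endothelium between 10.12 and 10.17 over all arrays. The part of these marker levels in the results was not tested. In whole cultures, fewer cells of a type and less RNA per cell cannot be told apart.

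Rbpj, on chr5:53555779-53657445 of GRCm38.p6 (the coordinates of the gene, since those of the features are not given), encodes the DNA-binding protein on which all Notch receptors converge. Feature 10521911 is annotated to Rbpj through 1 GenBank record and 0 RefSeq mRNAs. Feature 10521913 is annotated through 7 records, of which 4 are curated RefSeq mRNAs. Which exons, introns or untranslated parts either feature covers is not stated. The gene table also lists 3 pseudogenes of Rbpj, none of which has a feature of its own, and whether their transcripts bind either feature was not tested.

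The promoter window of Rbpj is shown because it alone among the members' windows holds the letters that RBPJ itself binds. It is a RefSeq window on the plus strand of GRCm38.p6, chr5:53590096-53590395, that runs from 250 bases before a transcript start to 50 bases after it, and capitals mark the core TGGGAA or its reverse complement.
Rbpj: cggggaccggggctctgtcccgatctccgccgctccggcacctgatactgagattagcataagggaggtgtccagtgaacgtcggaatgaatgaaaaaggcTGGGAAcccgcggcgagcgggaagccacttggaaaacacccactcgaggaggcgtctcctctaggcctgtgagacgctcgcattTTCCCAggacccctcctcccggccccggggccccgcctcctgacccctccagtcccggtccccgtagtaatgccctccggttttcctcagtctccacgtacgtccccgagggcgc
The first core starts 149 bases and the second, on the other strand, 65 bases before the transcript start. Another Rbpj window, which overlaps this one, holds 1 core, which is the second core above counted again. Windows were found for 7 of the 9 genes, 9 windows in all, and those of Notch1, Notch2, Notch3, Dll1, Jag1 and Maml1 hold 0 cores, while Hes1 and Hey1 were not matched. Of all 32851 windows of this length, 25.6% hold at least 1 core and 3.79% at least 2. The core of STAT sites, TTCNNNGAA, which reads the same on both strands, is in 1 member window, that of Notch3, and in 8.30% of all windows. These matches describe letters in a window and not bound sites.

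Rbpj feature 10521911 had log2 intensities of 8.38 and 8.42 in the GCSF arrays, 9.58 and 9.60 in the LIF/PD arrays and 9.61 and 9.75 in the control arrays. Both GCSF arrays lay more than 1 log2 unit below every other array. The means were 8.40 ± 0.03 in GCSF, 9.59 ± 0.02 in LIF/PD and 9.68 ± 0.10 in control (SD, n = 2 each). The difference of GCSF from control was -1.28 ± 0.06 log2 (SE), a level 2.42-fold lower, and that of GCSF from LIF/PD was -1.18 ± 0.06. Of all 16912 features tested, 4 had a GCSF difference from control at least this far below 0, this one included. Rbpj was chosen for this same difference, so its rank is a description only. LIF/PD differed from control by -0.09 ± 0.06, which did not pass the test (limma, adjusted p = 0.815, with a 95% interval of the difference from -0.22 to 0.04). Without control replicate 1 this value was -0.16, and without control replicate 2 it was -0.02. The control arrays in this test also took part in the choice of Rbpj.

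The other Rbpj feature, 10521913, was nearly level. It had log2 intensities of 11.60 and 11.54 in the GCSF arrays, 11.63 and 11.61 in LIF/PD and 11.61 and 11.62 in control. GCSF differed from control by -0.05 ± 0.03 and from LIF/PD by -0.05 ± 0.03, values given without a test, with both GCSF arrays just below the others. Without GCSF replicate 1 the difference from control was -0.08, and without GCSF replicate 2 it was -0.02. LIF/PD differed from control by 0.01 ± 0.03 (limma, adjusted p = 0.988, 95% interval -0.07 to 0.08). The 2 features of this gene therefore gave different values for the same contrast, and neither alone speaks for all Rbpj transcripts.

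**Figure D1:**
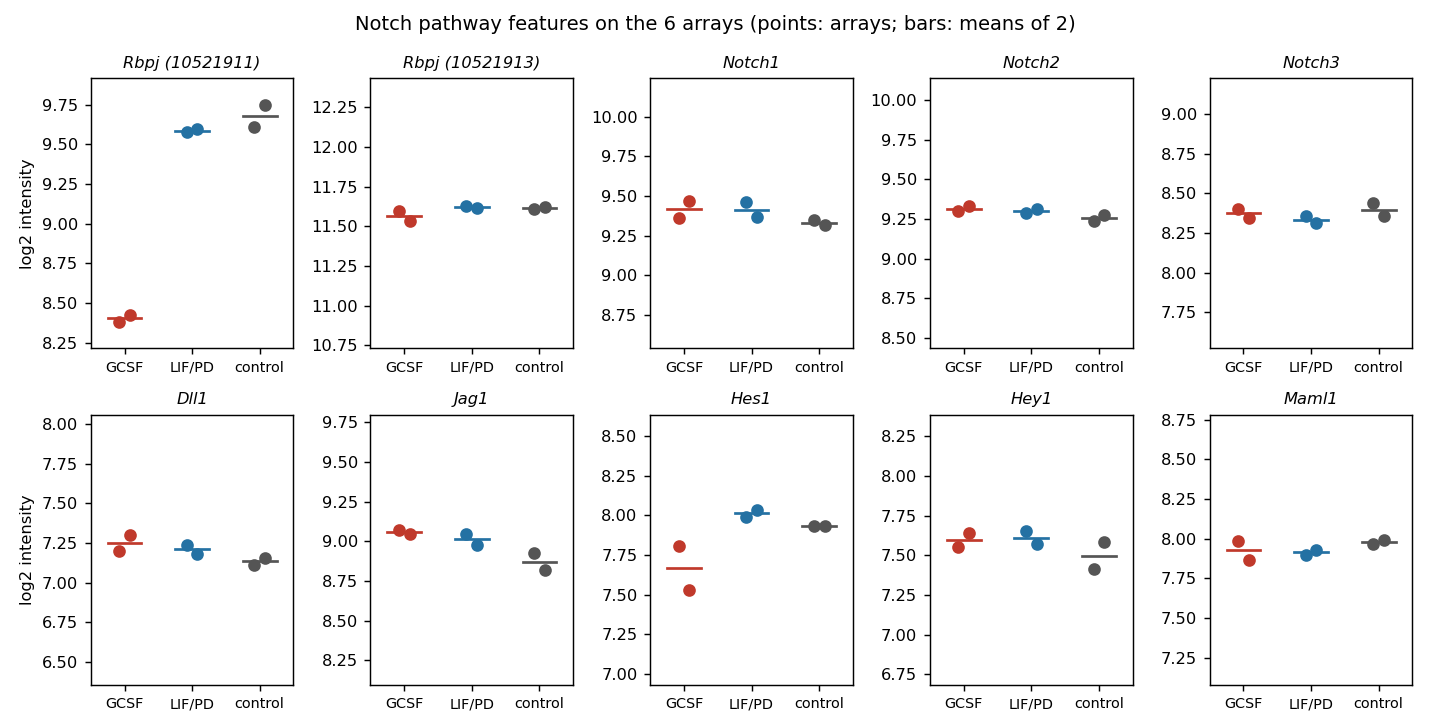
Log2 intensity of the 10 Notch pathway features on each array, with GCSF, LIF/PD and control from left to right in every panel, points for arrays and bars for the means of 2. All panels span the same height, and the 2 GCSF arrays stand apart on Rbpj feature 10521911 (8.38 and 8.42) while Rbpj feature 10521913 stays between 11.54 and 11.63.

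Among the ligand genes, Jag1, which encodes a Jagged ligand (chr2:137081451-137116520, GRCm38.p6 as for all genes below), had log2 intensities of 9.07 and 9.05 in the GCSF arrays, 9.05 and 8.98 in LIF/PD and 8.93 and 8.82 in control. All 4 treated arrays lay above both control arrays. The difference was 0.19 ± 0.06 for GCSF against control and 0.14 ± 0.06 for LIF/PD against control, and neither passed over all features (limma, adjusted p = 0.214 and 0.719, unadjusted p = 0.00873 and 0.0318). Both differences use the same 2 control arrays, and no label says whether those cells were also held without serum. The part of serum removal in this and the other differences from control was not tested. GCSF and LIF/PD differed by 0.05 ± 0.06 (adjusted p = 0.809). Dll1, which encodes a Delta ligand (chr17:15367354-15376932), had 7.20 and 7.30 in GCSF, 7.24 and 7.18 in LIF/PD and 7.11 and 7.16 in control. Its differences from control were 0.11 ± 0.07 in GCSF and 0.07 ± 0.07 in LIF/PD, with overlap between the treated groups (limma, adjusted p = 0.593 and 0.896).

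The 3 receptor genes showed small differences. Notch1 (chr2:26457902-26503822), which encodes the receptor best known from neural and T cell development, had 9.36 and 9.47 in GCSF, 9.46 and 9.37 in LIF/PD and 9.35 and 9.31 in control. Its treated groups overlapped each other and lay above control, by 0.08 ± 0.05 in GCSF and 0.08 ± 0.05 in LIF/PD (limma, adjusted p = 0.594 and 0.824). Notch2 (chr3:98013538-98150367) had 9.30 and 9.33 in GCSF, 9.29 and 9.31 in LIF/PD and 9.24 and 9.28 in control, differences from control of 0.06 ± 0.04 and 0.04 ± 0.04 that did not pass (adjusted p = 0.658 and 0.908). Notch3 (chr17:32120820-32166896) had 8.40 and 8.35 in GCSF, 8.36 and 8.31 in LIF/PD and 8.44 and 8.36 in control. Its GCSF arrays overlapped control, and its differences were -0.02 ± 0.06 in GCSF and -0.06 ± 0.06 in LIF/PD (limma, adjusted p = 0.921 and 0.889). The 95% intervals of the GCSF differences ran from -0.04 to 0.21 for Notch1, from -0.04 to 0.16 for Notch2 and from -0.15 to 0.11 for Notch3.

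Maml1 (chr11:50255634-50293131) encodes the Mastermind coactivator that joins RBPJ and the Notch fragment. It had 7.99 and 7.87 in GCSF, 7.90 and 7.93 in LIF/PD and 7.96 and 7.99 in control. The GCSF values spanned those of LIF/PD, and the differences from control were -0.05 ± 0.06 in GCSF and -0.06 ± 0.06 in LIF/PD (limma, adjusted p = 0.816 and 0.902).

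Hes1 (chr16:30065357-30067796), a repressor gene that is a direct target of RBPJ, had log2 intensities of 7.81 and 7.53 in the GCSF arrays, 7.99 and 8.04 in the LIF/PD arrays and 7.93 and 7.93 in control. Both GCSF arrays were the lowest and both LIF/PD arrays the highest, and the GCSF arrays differed from each other more than the arrays of either other group did. GCSF differed from control by -0.26 ± 0.09 and from LIF/PD by -0.35 ± 0.09. Neither passed over all features (limma, adjusted p = 0.288 and 0.157, unadjusted p = 0.0181 and 0.00440), and their 95% intervals ran from -0.47 to -0.06 and from -0.55 to -0.14. LIF/PD lay 0.08 ± 0.09 from control (adjusted p = 0.912). Without GCSF replicate 2 the Hes1 difference from control was -0.12, and without GCSF replicate 1 it was -0.40.

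Hey1 (chr3:8663359-8667038), a repressor gene of the related Hey family, did not show that order. Its values were 7.55 and 7.64 in GCSF, 7.65 and 7.57 in LIF/PD and 7.41 and 7.58 in control, and every pair of groups overlapped. The differences from control were 0.10 ± 0.08 in GCSF and 0.12 ± 0.08 in LIF/PD (limma, adjusted p = 0.671 and 0.834). Without control replicate 1 they were 0.02 and 0.03, and without control replicate 2 they were 0.19 and 0.20.

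**Figure D2:**
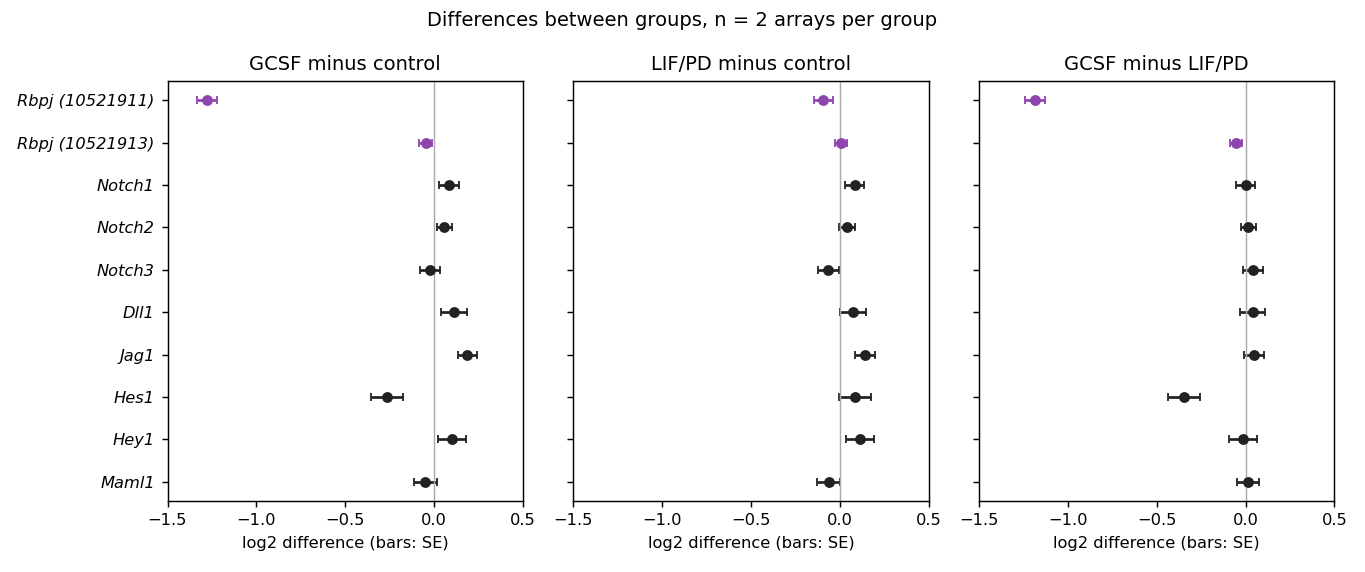
Log2 differences of the 10 features with their standard errors, for GCSF minus control, LIF/PD minus control and GCSF minus LIF/PD (n = 2 arrays per group, Rbpj in purple). Rbpj feature 10521911 lies at -1.28 and -1.18 in the panels with GCSF and at -0.09 in the other, and the next largest difference in size is that of Hes1, -0.35 for GCSF minus LIF/PD.

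Counted over the 8 member features other than Rbpj, 0 passed the test for GCSF against control, where 1.17% of all tested features did, and 2 had an unadjusted p under 0.05, as did 12.1% of all features. For LIF/PD against control 0 of all 10 member features passed, against 0.0650% of all features, and 1 had an unadjusted p under 0.05, as did 6.59% of all features. These 10 include both Rbpj features, and the control arrays also took part in the choice of Rbpj. For GCSF against LIF/PD 0 of 8 passed, against 0.846% of all features, and 1 had an unadjusted p under 0.05, as did 11.8% of all features. With shares of this size in all features, these member counts are near the background and are no result about the pathway. The shares that passed after adjustment stand for 198, 11 and 143 features in the order given, and for 88 to 164, 1 to 7 and 30 to 91 features with 1 array left out. The arrays of the groups did not overlap for 4 higher and 1 lower of the 8 features in GCSF against control, where 41.8% of all tested features did not overlap. The counts were 5 higher and 2 lower for LIF/PD against control, against 38.4% of all features, and 0 higher and 1 lower for GCSF against LIF/PD, against 41.5%. The first pair of comparisons share their control arrays. The median difference of the 8 features was 0.07 for GCSF and 0.08 for LIF/PD against control, and 0.01 for GCSF against LIF/PD, beside 0.008, 0.012 and -0.004 over all tested features.

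The rest of the pathway was examined in 66 further genes, grouped by role, with 72 features. Of these features 66, of 61 genes, passed the intensity filter and were tested. No feature of this list passed in any of the 3 comparisons with limma, while an unadjusted p under 0.05 was reached by 1 higher and 1 lower feature for GCSF against control, by 1 higher for LIF/PD against control, and by 2 higher and 2 lower for GCSF against LIF/PD. The shares of all features that reached it were the 12.1%, 6.59% and 11.8% given above. The median difference over the list was 0.003, 0.008 and -0.011 in the same order. Of the 66, 13 were higher and 11 lower without overlap for GCSF against control, where 41.8% of all features did not overlap. The counts were 15 higher and 8 lower for LIF/PD against control, against 38.4% of all features, and 8 higher and 16 lower for GCSF against LIF/PD, against 41.5%.

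The feature nearest to the threshold was Dtx3l, which encodes a Deltex-family ubiquitin ligase. It had log2 intensities of 8.51 and 8.50 in GCSF, 8.43 and 8.46 in LIF/PD and 8.18 and 8.27 in control. All treated arrays lay above both controls, with differences of 0.28 ± 0.06 in GCSF and 0.22 ± 0.06 in LIF/PD that did not pass (limma, adjusted p = 0.0633 and 0.535). Over the alternatives, the adjusted p for GCSF against control lay between 0.0521 and 0.361. The next values for GCSF against control were 0.13 ± 0.07 for Numbl, a relative of the Notch inhibitor Numb, and 0.10 ± 0.08 for Dtx4, another Deltex gene. At the other end were the ligand gene Dll3 (-0.16 ± 0.08), the Mastermind gene Maml2 (-0.15 ± 0.08 on 1 feature and -0.06 ± 0.06 on the other) and Nrarp (-0.14 ± 0.09), which encodes a feedback inhibitor of the Notch complex. The values of Numbl, Dtx4, Dll3, Nrarp and the first Maml2 feature had adjusted p between 0.472 and 0.671 with limma.

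For LIF/PD against control the other extremes were Psenen, a gene for a subunit of the gamma-secretase that cuts Notch, at 0.21 ± 0.10 on 1 feature and 0.01 ± 0.04 on the other, and the non-canonical ligand gene Dlk1 at 0.14 ± 0.07. On the low side were Dlk2 (-0.14 ± 0.08), and 1 feature each of Maml2 (-0.12 ± 0.08) and of the ligand ubiquitin ligase gene Neurl1b (-0.13 ± 0.10). The other feature of Maml2 lay at -0.04 ± 0.06, and that of Neurl1b on the other side of 0, at 0.06 ± 0.08. For GCSF against LIF/PD, Hes6, a Hes-family gene, had 8.75 and 8.81 in GCSF, 8.95 and 8.90 in LIF/PD and 8.86 and 8.93 in control. Its difference of GCSF from LIF/PD was -0.14 ± 0.05 (limma, adjusted p = 0.345), with the GCSF arrays below all others. Also in that comparison stood Dlk1 (-0.16 ± 0.07), the ligand ubiquitin ligase gene Mib1 (0.14 ± 0.05) and Dlk2 (0.10 ± 0.08), none of which passed. Psenen had -0.22 ± 0.10 on 1 feature and -0.04 ± 0.04 on the other, and the features of Neurl1b took opposite signs, at 0.15 ± 0.10 and -0.08 ± 0.08, and none of these passed.

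By role, the 7 tested features listed as targets besides Hes1 and Hey1 were Hes2, Hes5, Hes6, Hes7, Heyl, Nrip1 and Ccnd1. Their median difference was -0.06 for GCSF against control (range -0.12 to 0.03). Whether Notch drives each of these genes in these cells was not tested, so this median is no measure of Notch activity. The 10 features of receptor turnover and inhibition had 0.05 (-0.14 to 0.28). The coactivators had -0.01 (8 features), the corepressors 0.02 (15 features) and the receptor cleavage genes -0.02 (10 features). Against control, the LIF/PD medians of these roles lay between -0.03 for the coactivators and 0.04 for turnover and inhibition.

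**Figure D3:**
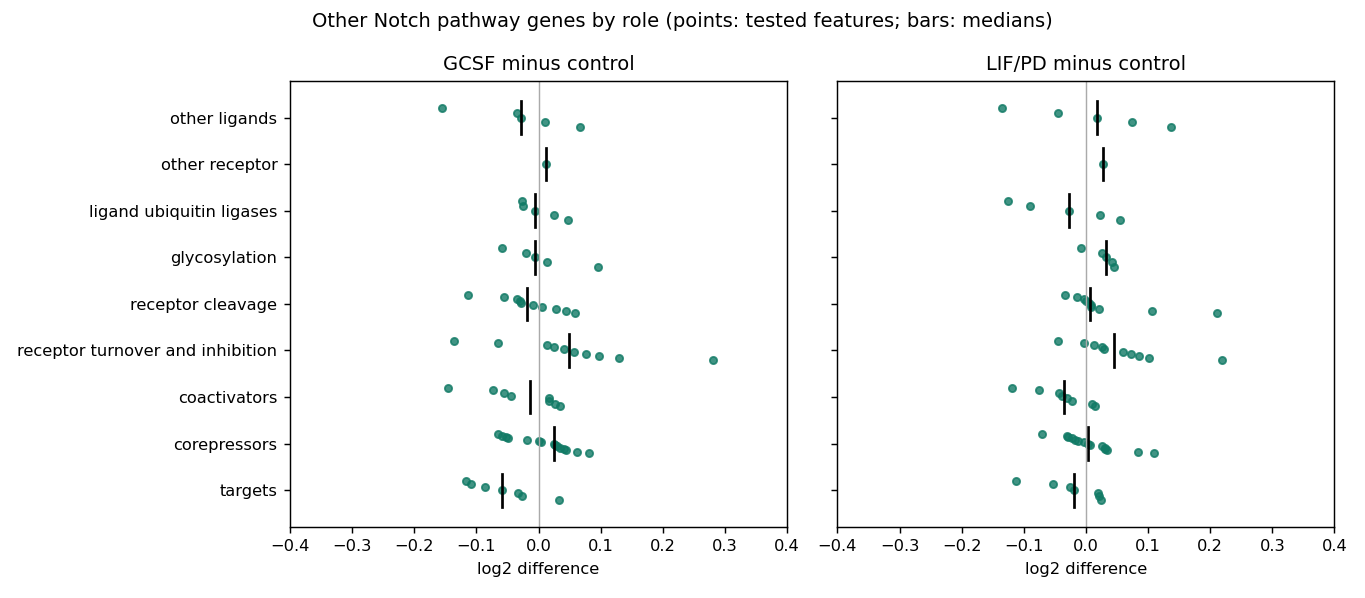
Log2 differences of the 66 tested features of other Notch pathway genes by role, for GCSF minus control and LIF/PD minus control, with points for features and bars for medians. All points lie between -0.16 and 0.28 for GCSF and between -0.14 and 0.22 for LIF/PD, and none passed the test.

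The features most like Rbpj feature 10521911 across the 6 arrays were found by Pearson correlation among 238 tested features with 1 symbol and a range of at least 0.5 log2. The closest were Epha2, an ephrin receptor gene (r = 0.997), Dusp6 (0.995), Gm10244 (0.995), Spry4 (0.993), Snapc3, a gene for a subunit of the complex that activates small nuclear RNA genes (0.989), the immediate early genes Egr1 (0.987) and Myc (0.987), and Dusp4, another MAP kinase phosphatase gene (0.986). Their differences of GCSF from control were -0.64, -1.56, -0.51, -1.83, -0.44, -1.49, -0.77 and -0.55 in the same order, beside -1.28 for the Rbpj feature. Against control in LIF/PD they lay between -0.18 for Egr1 and 0.09 for Myc. The most opposed were Rhob, a small GTPase gene (r = -0.996), Spic, an ETS-family factor gene (-0.993), the antiproliferative gene Btg2 (-0.992) and the noncoding RNA Rian (-0.989), with GCSF differences from control of 1.28, 0.56, 0.69 and 1.31. Every one of these correlations rests mainly on the contrast of the 2 GCSF arrays with the other 4, which all features share, and 17 of the 238 features reached 0.95. They are descriptions over 6 arrays, with no test. Spic lay at 6.57 to 6.68 in LIF/PD and control, under the filter value of 6.70, and passed only through its GCSF arrays. Gm10244 was under that value in both GCSF arrays, at 6.58 and 6.55, and passed only through the other arrays.

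**Figure D4:**
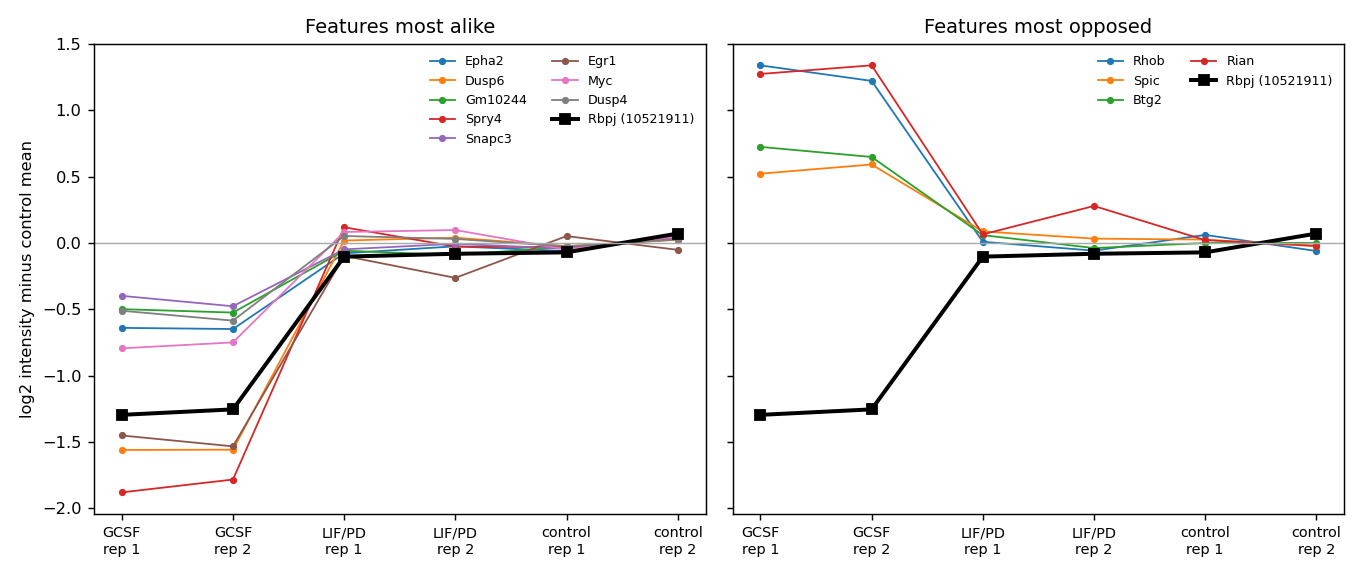
Log2 intensity minus the control mean on each array for Rbpj feature 10521911 (thick black) and the 8 most alike and 4 most opposed features, with GCSF, LIF/PD and control arrays from left to right and lines that only join the values of a feature. The Rbpj feature and the 8 alike features are low on both GCSF arrays, and the 4 opposed ones are high there.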

How the data were processed

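Total RNA was extracted with TRIzol, and biotin labelling was done by a core facility, per the labels. The table deposited by the authors covers 34760 features on 6 arrays. Its values, between 2.29 and 14.50, were read as log2 intensity from their range, since the log base, background correction, summarization and normalization applied by the authors are not given in the sources used here. Array medians lay between 7.11 and 7.16, and the values were used as deposited. Precision is limited by having 2 arrays per group.

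Features were named through the platform's annotation, in which 21640 carry 1 symbol, 1321 several and 5226 outside the control block none. The 6573 features below the first annotated identifier were treated as a control block and left out. Of the other 28187, the 16912 whose mean reached the 40th percentile (6.70) entered the tests, among them all 10 member features. With limma 3.58.1 in R 4.3.3, the model held a mean for each group over all 6 arrays, with an intensity trend in the variances (3 residual degrees of freedom, 8.4 in total). Two-sided p-values were adjusted by Benjamini-Hochberg over the 16912 features, with a threshold of 0.05. An error with no other name is a standard error, and intervals are 95% and unadjusted. The fit was tested on simulated data.

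The members, the wider pathway list and the naming rules were chosen with earlier results of these data known. Named were all member features, the 3 largest rises and falls of the wider list per comparison, and the 8 features most like and 4 most unlike the Rbpj feature of the larger range. Promoter windows came from RefSeq (GRCm38.p6). Alternatives covered the arrays in the fit, a replicate block, the filter, 2 normalizations, the variance model and each array left out. Figures were drawn with matplotlib 3.10.9.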

Additional observations from a re-analysis of the deposited data

Results flagged for a closer look

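Hes1 was flagged because both GCSF arrays lay below both control arrays while both LIF/PD arrays lay above them. The difference of GCSF from LIF/PD was -0.35 ± 0.09 log2 (SE, n = 2 arrays per group), and it did not pass the test of that difference over all features (limma, adjusted p = 0.157). It was -0.49 without GCSF replicate 1 and -0.21 without GCSF replicate 2. Over the alternatives this adjusted p lay between 0.0625 and 0.534. The cause of this pattern was not tested. Groups did not overlap in 41.8% of all tested features for GCSF against control, 38.4% for LIF/PD against control and 41.5% for GCSF against LIF/PD. The share of features with the full order seen for Hes1 was not counted.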

How the results depend on the processing

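Under 13 alternatives, 0 of 329 repeated tests of members passed (lowest adjusted p = 0.0625, for Hes1), and 360 of 381 repeated member values kept direction and side of the threshold or moved by less than the spread between arrays. Changes to the filter, the replicate block, the variance model or arrays outside a comparison cannot move a difference, only its test. For such alternatives the value was fixed in advance, and they make up a large part of the 381. The difference of Rbpj feature 10521911 stayed between -1.35 and -1.20 for GCSF against control and between -1.20 and -1.16 for GCSF against LIF/PD. Dll1, Hes1 and Hey1 were not tested under the stricter filter. Near 0, signs turned: Rbpj feature 10521913 for LIF/PD against control (-0.0044 with quantile normalization, -0.0013 to 0.014 with arrays left out), and for GCSF against LIF/PD Notch1 (-0.0028 with median centring). With 1 array left out, the values of GCSF against control ran from -0.063 to 0.018 for Notch3 and -0.11 to 0.0088 for Maml1, and those of GCSF against LIF/PD from -0.051 to 0.054 for Notch1, -0.00034 to 0.032 for Notch2, -0.012 to 0.090 for Dll1, -0.059 to 0.031 for Hey1 and -0.045 to 0.072 for Maml1. The cause was not tested.

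Of all tested features 198, 11 and 143 passed for GCSF against control, LIF/PD against control and GCSF against LIF/PD. Without an intensity trend 125, 1 and 71 passed, and with only the 2 groups compared 82 passed for GCSF against LIF/PD. With 1 array left out, 88 to 164, 1 to 7 and 30 to 91 passed. For GCSF against control, leaving out the first control array gave 88, the second control array 108 and the first GCSF array 118. In each of the other comparisons, the count fell to 7 or fewer and to 91 or fewer whichever of the 6 arrays was left out. With the replicate block 195, 9 and 165 passed. Deviations of same-numbered arrays correlated by 0.0071 to 0.099, so the numbers are not taken as pairs. The wider list, rerun after its values were seen, had 0 calls under all 13 alternatives. Only 2 arrays per group and an unknown signal over background limit what these values show.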
